A study of Mus musculus with 18 samples.

Results

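The E2F transcription factor family is described here by its 10 genes, *E2f1*, *E2f2*, *E2f3*, *E2f4*, *E2f5*, *E2f6*, *E2f7*, *E2f8*, *Tfdp1* and *Tfdp2*, which were chosen by gene name out of 35275 genes in the count table. All 10 had enough reads to be tested. RNA was sequenced from cell lines of malignant peripheral nerve sheath tumors (MPNSTs, sarcomas of nerve), with 3 lines lacking *Nf1* and *p53* (*Nf1*/*p53* dKO) and 3 lines lacking *Nf1* and *Cdkn2a* (*Nf1*/*Cdkn2a* dKO). Each line came from a different tumor and was sequenced as 3 cultures, which gives 18 libraries. Tumors were started in wild-type 129 Sv/Jae mice by injecting the sciatic nerve with adenovirus that carried CMV-driven Cas9 and guide RNAs, so that both genotypes share the loss of *Nf1*, the virus and the mouse strain. The CMV promoter is not specific to one cell type of the nerve, and a line stands for 1 tumor, so that a feature of a line and a feature of its genotype can be separated only over the 3 tumors of each genotype.

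E2F proteins bind DNA as dimers with a DP partner and switch genes of DNA replication and the cell cycle on or off. E2F1, E2F2 and E2F3 are the activators, which the retinoblastoma protein holds in check until cyclin-dependent kinases phosphorylate it. E2F4 and E2F5 repress together with the pocket proteins p107 and p130, E2F6 represses within a Polycomb complex without pocket proteins, and E2F7 and E2F8 repress without a DP partner. The p16 product of *Cdkn2a* inhibits the kinases that phosphorylate the retinoblastoma protein and the p19 product stabilizes p53, and p53 in turn induces the kinase inhibitor p21, so both genotypes lose a brake on E2F.

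Several E2F genes are themselves known to carry E2F sites in their promoters, and the promoters of the members that hold such a motif are shown here. RefSeq windows of the mouse build GRCm38.p6, from 250 bases before to 50 bases after a start site, were found for 8 of the 10 members, all but *E2f4* and *E2f5*. The motif was spelled TTTCCCGC, TTTCGCGC, TTTGGCGC or TTTGCCGC and was searched on both strands. It was present in 2.26% of 32851 windows over all genes, or in 704 of 27025 genes (2.6%), and in 4 of the 8 members. The *E2f1* window (chr2:154569377-154569676, minus strand) lay inside the gene, whose annotated start is at 154569892. The *Tfdp2* windows lay inside a gene whose annotated start is at 96196275. For *E2f1* and *Tfdp2* the bases ahead of the annotated start were thus not searched, and a missing motif does not describe that promoter. A match of letters is a description and not a measured binding site. Each sequence is given along the strand of its gene, with the motif in capitals. The *E2f2* window is at chr4:136172024-136172323 on the plus strand and has the motif just past the RefSeq start site of the window. That whole window, with its motif, lies ahead of the annotated start of *E2f2* at 136172394. The *E2f3* window is at chr13:29986014-29986313 on the minus strand, the *E2f7* window at chr10:110745189-110745488 on the plus strand and the *Tfdp1* window at chr8:13338501-13338800 on the plus strand, and these 3 have it ahead of the start.
E2f2: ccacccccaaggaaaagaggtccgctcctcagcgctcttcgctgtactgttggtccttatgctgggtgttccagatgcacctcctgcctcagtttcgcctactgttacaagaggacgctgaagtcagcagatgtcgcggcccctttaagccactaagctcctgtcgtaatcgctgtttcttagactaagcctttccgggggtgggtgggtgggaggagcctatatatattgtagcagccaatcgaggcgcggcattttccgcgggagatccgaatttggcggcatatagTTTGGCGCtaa
E2f3: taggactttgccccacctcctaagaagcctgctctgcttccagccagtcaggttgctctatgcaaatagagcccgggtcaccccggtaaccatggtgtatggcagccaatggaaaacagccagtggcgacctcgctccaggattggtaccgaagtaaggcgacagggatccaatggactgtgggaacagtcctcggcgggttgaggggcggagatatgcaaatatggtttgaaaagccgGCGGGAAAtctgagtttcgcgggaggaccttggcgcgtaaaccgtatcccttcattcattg
E2f7: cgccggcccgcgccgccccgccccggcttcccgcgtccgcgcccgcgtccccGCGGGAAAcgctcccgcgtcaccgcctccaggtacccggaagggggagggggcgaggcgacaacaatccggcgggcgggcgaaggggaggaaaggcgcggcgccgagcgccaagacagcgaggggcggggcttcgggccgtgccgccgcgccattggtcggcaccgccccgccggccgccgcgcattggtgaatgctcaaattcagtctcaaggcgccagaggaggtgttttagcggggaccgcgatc
Tfdp1: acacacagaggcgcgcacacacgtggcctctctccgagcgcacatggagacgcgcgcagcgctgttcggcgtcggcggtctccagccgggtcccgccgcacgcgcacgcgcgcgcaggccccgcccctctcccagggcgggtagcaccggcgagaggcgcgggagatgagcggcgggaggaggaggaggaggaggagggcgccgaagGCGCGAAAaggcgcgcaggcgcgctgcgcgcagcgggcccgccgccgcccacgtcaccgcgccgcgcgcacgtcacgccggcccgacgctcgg

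The libraries held between 19560535 and 28312207 counted reads, and a line had 65206479 to 73065228 after its 3 cultures were added up. The lines were labelled as mesenchymal, and all 9 mesenchymal markers (among them *Vim* and *Prrx1*) were at 1 CPM (counts per 1000000 counts, TMM-scaled) or more in every line. Their differences between genotypes ran from −0.95 on the log2 scale (*Fn1*) to 1.40 (*Prrx1*). None of the 9 had an adjusted p under 0.05 in edgeR's quasi-likelihood test on the 6 lines (3 with an unadjusted p under 0.05). DESeq2 on the 6 lines called 2 of the 9, beside 8.63% of all genes. On the cultures, limma-voom with a random effect for line called 3 of the 9, beside 16.6% of all genes. Of the 7 Schwann cell markers with enough reads to be tested none reached 1 CPM in every line, with summed levels of 3.68 to 78.5 CPM in *Nf1*/*p53* dKO and 1.33 to 3.02 CPM in *Nf1*/*Cdkn2a* dKO lines. *Sox10*, a defining factor of the lineage, was below 1 CPM in all 6 lines. The 4 leukocyte markers in the table summed to 7.41 CPM or less, with *Ptprc*, *Cd3e* and *Itgam* below 1 CPM throughout, and the 4 endothelial markers to 2.02 CPM or less. *Tek*, a vessel receptor, was near the floor, at 0.41 to 1.08 CPM in *Nf1*/*p53* dKO and 0.064 to 0.078 CPM in *Nf1*/*Cdkn2a* dKO lines. It was lower in *Nf1*/*Cdkn2a* dKO (log2 fold change −3.23 ± 0.55 SE, adjusted p = 0.0465, and 0.0606 or more with any one line left out). *Tek* passed the filter on low counts only through the *Nf1*/*p53* dKO lines, so its entry into the test rested on that difference. In edgeR and limma-voom on the cultures *Tek* had too few reads to be tested. Of the targeted genes, *Trp53* mRNA was at 58.7 to 94.1 CPM in *Nf1*/*p53* dKO and 184.8 to 246.9 CPM in *Nf1*/*Cdkn2a* dKO lines (log2 fold change 1.62 ± 0.23 SE, adjusted p = 0.0361, and 0.0436 to 0.124 with one line left out, under 0.05 only without *Nf1*/*p53* line 1). *Cdkn2a* mRNA was at 363.0, 279.2 and 42.9 CPM in *Nf1*/*p53* lines 1, 2 and 3 and at 168.8, 391.6 and 284.6 CPM in *Nf1*/*Cdkn2a* lines 1, 2 and 3. *Nf1* mRNA ranged from 27.7 to 70.0 CPM in *Nf1*/*p53* dKO and from 12.7 to 38.3 CPM in *Nf1*/*Cdkn2a* dKO lines. Such counts do not read the edits themselves.

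To compare the members with each other, CPM values were divided by the length of the union of exons of each gene in kilobases. *Tfdp1*, the main DP partner, and *E2f4* were the most abundant, with median levels over the 6 lines of 74.2 and 56.2 CPM per kilobase. *E2f1* followed at 20.7, *E2f5* at 13.4, *E2f3* at 9.06, *E2f8* and *E2f6* both at 7.30, *E2f7* at 4.18 and *Tfdp2* at 2.48 CPM per kilobase. *E2f2* was last at 0.852. Of the neighbors in this order, *E2f4* and *E2f1* were apart in every line, with the lowest *E2f4* level at 34.4 and the highest *E2f1* level at 23.1. All other neighbors overlapped over the lines. Within each line, *Tfdp1* was above *E2f4* and *E2f7* above *Tfdp2* in all 6 lines, and the order of the remaining neighbors turned in at least 1 line. The middle of the order depends on the length used. With the longest transcript in its place, *E2f6* had a median of 13.7, above *E2f5* at 13.4, *E2f8* at 10.8 and *E2f3* at 9.65. *Tfdp1*, *E2f4* and *E2f1* were still the highest and *E2f2* the lowest.

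**Figure D1:**
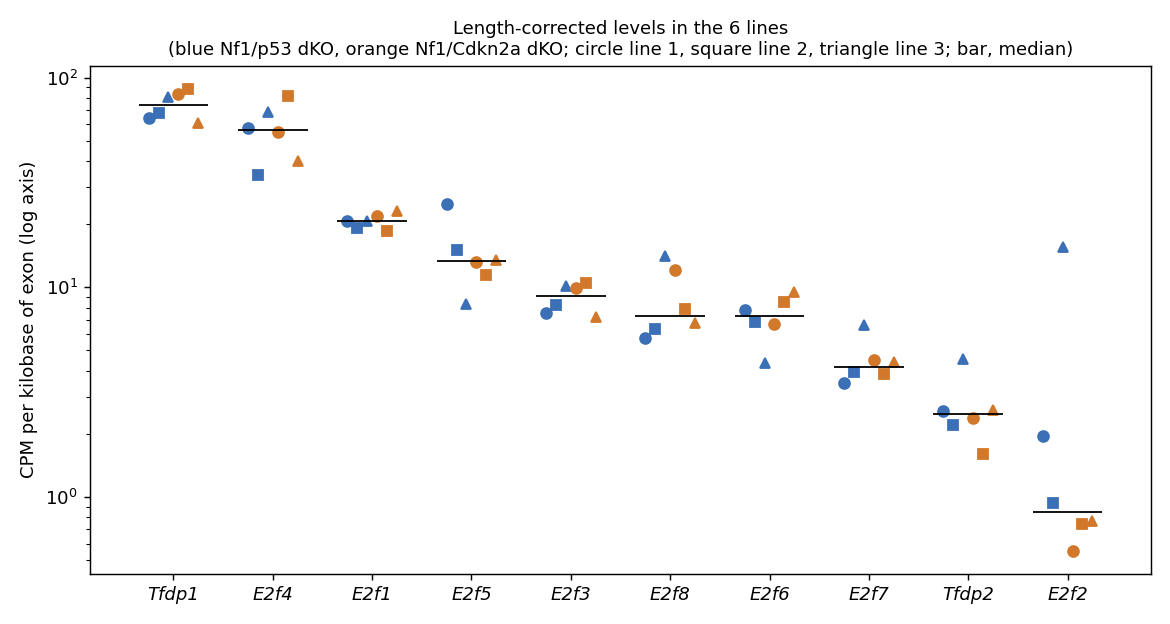
CPM per kilobase of exon (log axis) of each member in the 6 lines, ordered by the median (bar), with blue for *Nf1*/*p53* dKO, orange for *Nf1*/*Cdkn2a* dKO and a symbol for each line number. *Tfdp1* and *E2f4* are highest, *E2f1* is the tightest and *E2f2* spans from 0.555 to 15.5.

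Repressors outweighed activators in every line. The summed length-corrected level of the 3 activators over that of the 5 repressors was 0.304, 0.426 and 0.455 in *Nf1*/*p53* dKO lines 1, 2 and 3, and 0.352, 0.263 and 0.419 in *Nf1*/*Cdkn2a* dKO lines 1, 2 and 3. The genotypes overlapped in this ratio. *E2f4* alone made up 36.2 to 57.0% of the summed E2F level. The make-up of the activators differed in one line, where *E2f2* was 33.4% of the activator level (*Nf1*/*p53* line 3), against 1.72 to 6.47% in the other 5 lines. The length-corrected level of *Tfdp1* was 17.7 to 55.3 times that of *Tfdp2*, lowest in *Nf1*/*p53* line 3 and highest in *Nf1*/*Cdkn2a* line 2. The size of this ratio depends on the length used. The union of exons is 3670 bases for *Tfdp1* and 14029 for *Tfdp2*, and the longest transcripts have 2787 and 7354 bases. Without a length, *Tfdp1* and *Tfdp2* were at 296.2 and 63.9 CPM in *Nf1*/*p53* line 3 and at 324.5 and 22.4 CPM in *Nf1*/*Cdkn2a* line 2.

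The first question was whether loss of *Cdkn2a* in place of *p53* went with other levels of the E2F genes. None of the 10 members differed between the genotypes at an adjusted p under 0.05 in edgeR's quasi-likelihood test on the 6 lines, where 1.8% of all 15207 genes tested did. One member, *E2f2*, had an unadjusted p under 0.05 and lines that did not overlap between the genotypes, and 31.4% of all genes tested had lines that did not overlap. DESeq2 on the same 6 lines called *E2f2* alone, with 8.63% of genes called. When the 18 cultures were treated as separate samples, edgeR and DESeq2 each called 3 members, *E2f2*, *E2f6* and *Tfdp2*, with 46.5% and 30.1% of genes called. In limma-voom on cultures, with a random effect for line, no member was called and 2 had an unadjusted p under 0.05, with 16.6% of genes called. Cultures from one tumor are not separate samples of a genotype, and the fold changes below are those of the 6 lines.

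**Figure D2:**
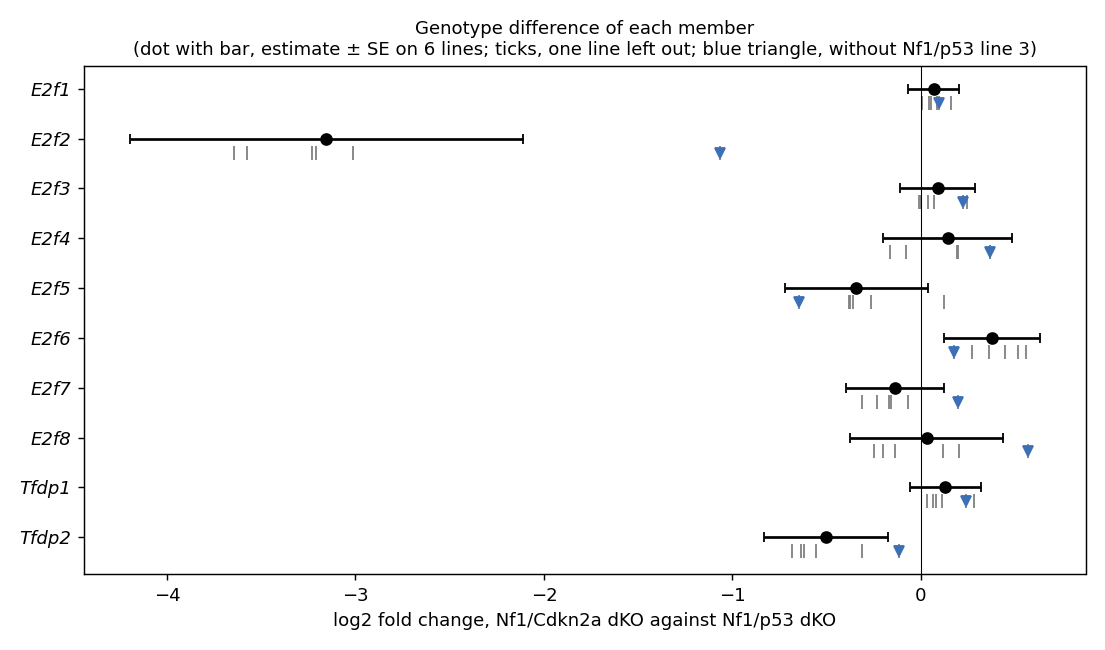
Log2 fold change of each member, *Nf1*/*Cdkn2a* dKO against *Nf1*/*p53* dKO, with its SE on 6 lines (dot and bar) and the values with one line left out (ticks, and a blue triangle without *Nf1*/*p53* line 3). The estimate for *E2f2* moves from −3.15 to −1.06 without that line, and the other members lie between −0.50 and 0.38.

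Among the activators, *E2f1* was the steadiest gene of the family. *E2f1*, which drives entry into S phase, was at 62.7, 65.6 and 68.2 CPM in the cultures of *Nf1*/*p53* line 1, at 64.0, 61.1 and 56.7 CPM in line 2 and at 62.9, 68.9 and 64.2 CPM in line 3. In *Nf1*/*Cdkn2a* dKO it was at 59.5, 72.9 and 73.3 CPM in line 1, at 60.7, 56.4 and 58.6 CPM in line 2 and at 69.2, 72.7 and 75.6 CPM in line 3. Every line overlapped with its neighbor in order. The means over lines were 63.7 ± 2.80 CPM (SD, n = 3 lines) and 66.8 ± 7.22 CPM, with a log2 fold change of 0.07 ± 0.13 SE (adjusted p = 0.793). Its range over the 6 lines, 0.31 on the log2 scale, was wider than that of just 3.02% of all genes tested, whose median range was 1.07.

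*E2f2*, the second activator, varied the most. In *Nf1*/*p53* dKO it was at 8.71, 10.3 and 9.49 CPM in line 1, at 5.25, 3.96 and 4.57 CPM in line 2 and at 73.8, 78.4 and 73.9 CPM in line 3. In *Nf1*/*Cdkn2a* dKO it was at 2.89, 3.02 and 2.28 CPM in line 1, at 3.26, 3.80 and 3.84 CPM in line 2 and at 3.22, 3.75 and 4.20 CPM in line 3. All 3 cultures of *Nf1*/*p53* line 3 stood apart, line 1 of that genotype came next, and the cultures of its line 2 overlapped with those of *Nf1*/*Cdkn2a* line 3. The log2 fold change was −3.15 ± 1.04 SE (adjusted p = 0.149). Without *Nf1*/*p53* line 3 it was −1.06, and without any one of the other lines it was between −3.65 and −3.02. The highest line was 27.9 times the lowest, a range over lines wider than that of 96.0% of genes.

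*E2f3*, the remaining activator, was lowest in *Nf1*/*Cdkn2a* line 3 (37.4 to 40.1 CPM) and *Nf1*/*p53* line 1 (36.8 to 43.9 CPM) and highest in *Nf1*/*Cdkn2a* line 2 (54.9 to 59.2 CPM) and *Nf1*/*p53* line 3 (52.8 to 56.8 CPM). High and low lines thus fell in both genotypes (log2 fold change 0.09 ± 0.20 SE, adjusted p = 0.819). The count does not separate its long and short isoforms, which start from different promoters.

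**Figure D3:**
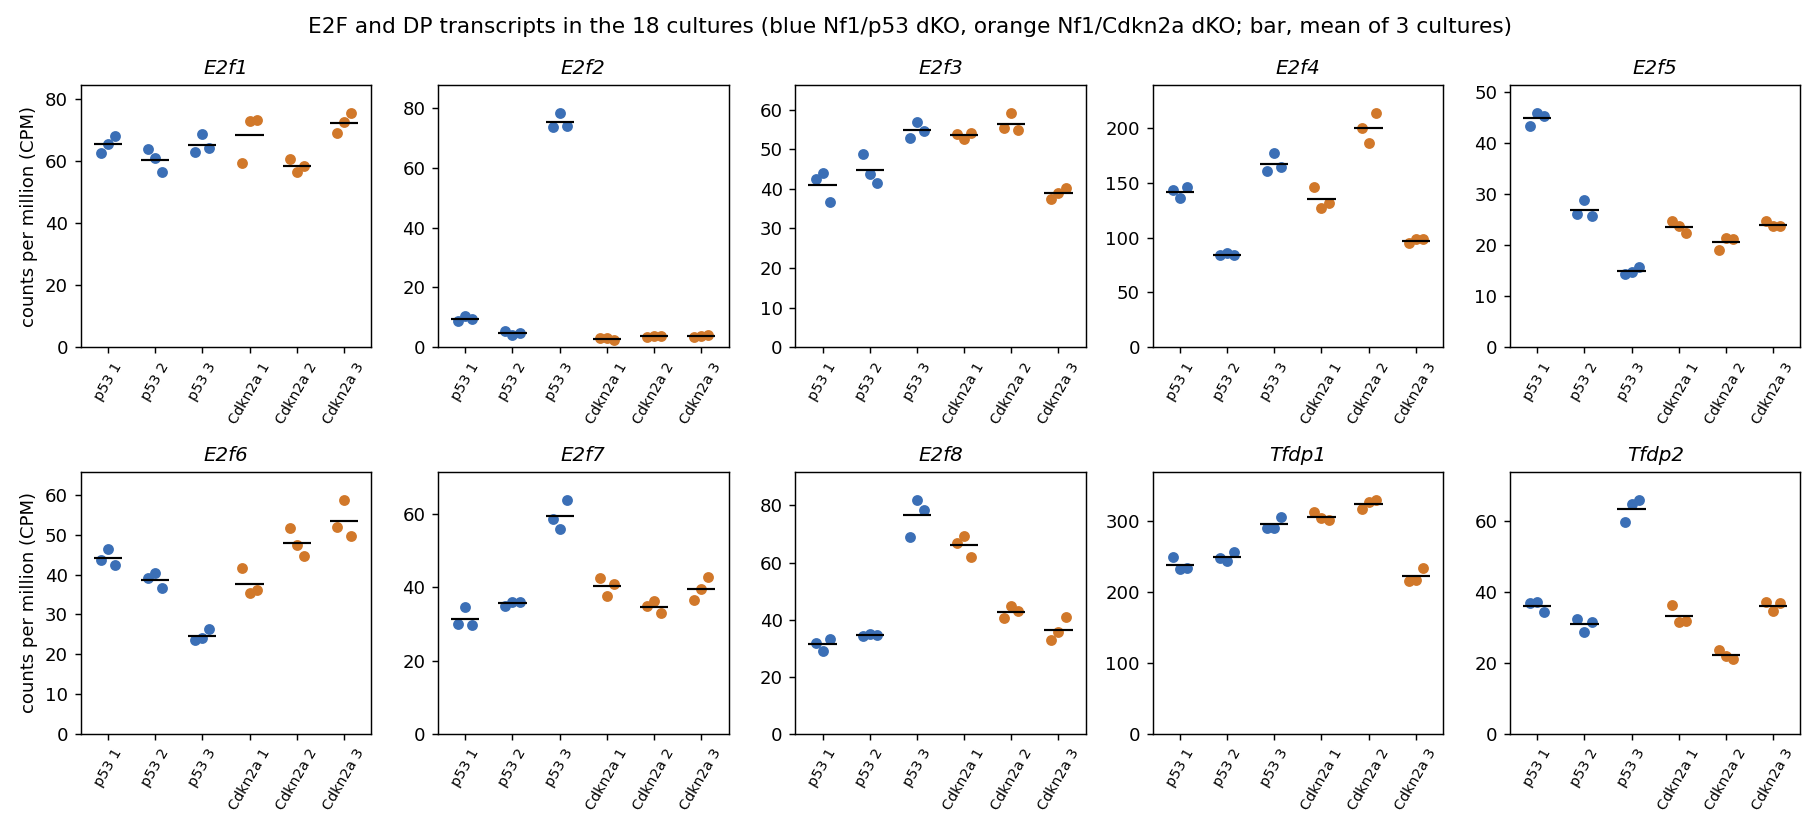
CPM of each member in the 18 cultures, one panel per gene with its own axis from 0, blue for *Nf1*/*p53* dKO, orange for *Nf1*/*Cdkn2a* dKO and a bar for the mean of 3 cultures. Cultures of one line lie close together, and *E2f2* in *Nf1*/*p53* line 3 (73.8 to 78.4 CPM) is apart from all other lines.

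Of the repressors that act through pocket proteins, *E2f4* was at 136.4 to 145.7, 83.6 to 85.5 and 160.6 to 177.2 CPM in the cultures of *Nf1*/*p53* lines 1, 2 and 3. In *Nf1*/*Cdkn2a* dKO it was at 127.1 to 146.1, 186.6 to 213.6 and 95.1 to 98.3 CPM. Both genotypes thus held low and high lines, and the log2 fold change was 0.14 ± 0.34 SE (adjusted p = 0.834). *E2f5* was at 43.4 to 45.8, 25.8 to 28.8 and 14.3 to 15.6 CPM in *Nf1*/*p53* lines 1, 2 and 3, so that line 1 was the highest and line 3 the lowest of all 6. The *Nf1*/*Cdkn2a* dKO lines lay between them within 19.0 to 24.6 CPM (log2 fold change −0.34 ± 0.38 SE, adjusted p = 0.629). *E2f5* shares 26 bases of exon with an opposite-strand gene, and the strand setting of the counting is not given in the sources used here.

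*E2f6*, the Polycomb-linked repressor, was at 42.5 to 46.5, 36.6 to 40.4 and 23.7 to 26.2 CPM in *Nf1*/*p53* lines 1, 2 and 3 and at 35.3 to 41.6, 44.6 to 51.6 and 49.7 to 58.8 CPM in *Nf1*/*Cdkn2a* lines 1, 2 and 3. It was lowest in *Nf1*/*p53* line 3, and its log2 fold change of 0.38 ± 0.25 SE did not pass (adjusted p = 0.421). It was 0.18 without that line. Among 10 partners of E2F6 in the Polycomb complex none passed the test in edgeR or in DESeq2 on the 6 lines, and 2 had an unadjusted p under 0.05 in edgeR. Of these 10, limma-voom with a random effect for line called 2, beside 16.6% of all genes. The estimates of all 10 ran from *L3mbtl2* (−0.67 ± 0.21 SE) to *Rnf2* (0.49 ± 0.31 SE), with a median log2 fold change of −0.12. Of 5 germline genes that E2F6 is known to silence, only *Stag3* had enough reads to be tested, at 2.17 CPM or less in each line (log2 fold change −2.94, adjusted p = 0.166). *Tuba3a* and *Tuba3b* were at 0 counts in all libraries, which by counting error alone allows up to 3 reads each. Near copies were searched for the members only and the counting tool is not given, so these zeros may not mean absence. Silencing by E2F6 was not tested.

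The atypical repressors *E2f7* and *E2f8* were both highest in *Nf1*/*p53* line 3. *E2f7* was at 56.0 to 63.9 CPM there, at 29.7 to 36.1 CPM in the other *Nf1*/*p53* dKO cultures and at 32.9 to 42.7 CPM in *Nf1*/*Cdkn2a* dKO cultures (log2 fold change −0.14 ± 0.26 SE, adjusted p = 0.785). *E2f8* was at 69.0 to 82.0 CPM in *Nf1*/*p53* line 3 and at 62.0 to 69.4 CPM in *Nf1*/*Cdkn2a* line 1, which overlapped, and at 29.2 to 44.9 CPM in the other 4 lines (log2 fold change 0.03 ± 0.40 SE, adjusted p = 0.973). Each genotype thus had a single line with high *E2f8*. *E2f8* shares 610 bases of exon with the opposite-strand transcript *Gm2788*, and *E2f7* 86 bases with *1700020G17Rik*, so part of their reads may not be their own if strand was not used.

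The DP partners had different patterns over the lines. *Tfdp1*, the partner of most E2F dimers, was at 216.0 to 329.8 CPM over all 18 cultures, lowest in *Nf1*/*Cdkn2a* line 3 and highest in *Nf1*/*Cdkn2a* line 2 (log2 fold change 0.13 ± 0.19 SE, adjusted p = 0.719). A processed copy, *Gm7390*, is 97.6% identical to it over 1230 bases and is not a row of the count table. *Tfdp2* was at 59.97 to 66.1 CPM in *Nf1*/*p53* line 3 and at 28.8 to 37.4 CPM in the other *Nf1*/*p53* dKO cultures. In *Nf1*/*Cdkn2a* dKO it was at 21.1 to 37.2 CPM (log2 fold change −0.50 ± 0.33 SE, adjusted p = 0.410), and without *Nf1*/*p53* line 3 the log2 fold change was −0.11.

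The second question was whether the members differed between tumors of one genotype by more than the spread between cultures. In an F-test among the 3 *Nf1*/*p53* dKO lines, 9 of 10 members differed, beside 73.2% of all 14690 genes tested, and *E2f1* did not pass (adjusted p = 0.285). Among the *Nf1*/*Cdkn2a* dKO lines 9 of 10 differed, beside 56.8% of all genes, and *E2f7* did not pass (adjusted p = 0.0524). With a culture left out of the *Nf1*/*Cdkn2a* dKO test, *E2f5* (adjusted p = 0.0432 with all cultures) missed the threshold in 13 of 18 cases, and *E2f2* (0.0330) missed it without culture 3 of line 1, culture 2 of line 3 or culture 3 of line 3. *E2f2* also missed it with no filter on low counts, and *E2f5* with no filter, with DESeq2 size factors and with a block for the culture number. *E2f7* passed without *Nf1*/*p53* line 1 culture 2, *Nf1*/*Cdkn2a* line 1 culture 2 or *Nf1*/*Cdkn2a* line 3 culture 1. *E2f2* had the largest F statistic of the members among *Nf1*/*p53* dKO lines (734, adjusted p = 7.71e-21), and *E2f4* among *Nf1*/*Cdkn2a* dKO lines (136, adjusted p = 1.00e-12). The variance of log2 levels lay mostly between lines of one genotype, from 55.9% for *E2f2* and 59.8% for *E2f1* to 96.0% for *E2f4*, with a median of 47.6% over all genes. The genotype took 43.4% of the variance of *E2f2*, 29.6% of *E2f6*, 26.6% of *Tfdp2* and 7.09% or less of the other members, beside a median of 22.9% over all genes.

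*Nf1*/*p53* line 3 held the highest level of 4 members (*E2f2*, *E2f7*, *E2f8* and *Tfdp2*) and the lowest level of 2 (*E2f5* and *E2f6*). The line was also the highest of the 6 for 25.9% and the lowest for 25.5% of all genes tested, more often than any other line. At the *E2f2* locus on chromosome 4, the genes around it were compared in the same line, a comparison added after its value was seen. *E2f2* was 4.08 higher on the log2 scale in *Nf1*/*p53* line 3 than in the other 5 lines, and 79 genes in all reached that difference. The 24 tested genes within 1000 kb had differences between −1.03 and 1.07 with a median of 0.07. Of them, 8 were highest in *Nf1*/*p53* line 3. The 2 nearest tested neighbors were *Id3* (−0.79) and *Asap3* (1.07).

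**Figure D4:**
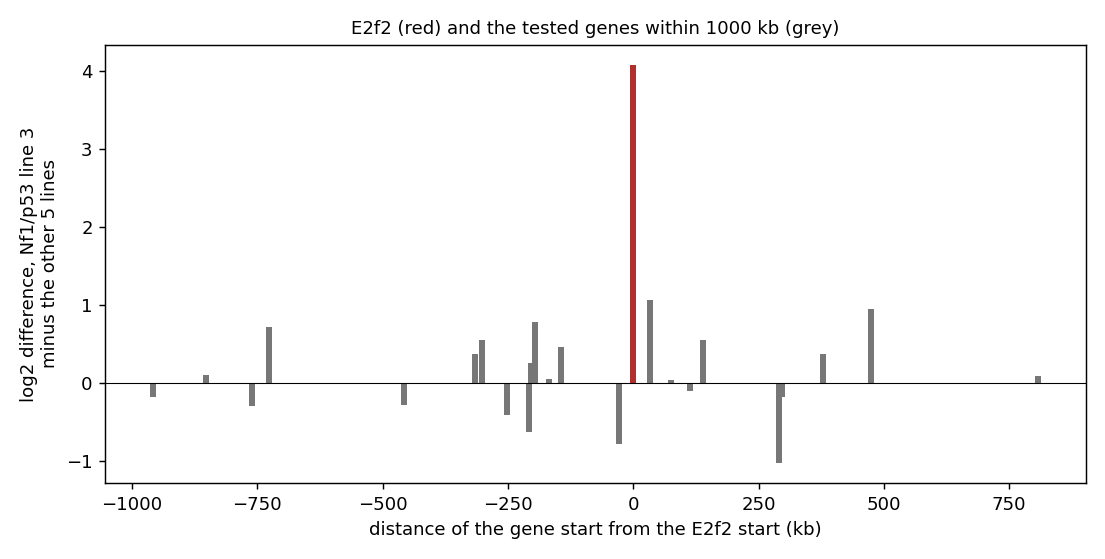
Log2 difference between *Nf1*/*p53* line 3 and the other 5 lines for *E2f2* (red) and the 24 tested genes within 1000 kb (grey), by distance in kb from the *E2f2* start. *E2f2* stands at 4.08 and its neighbors between −1.03 and 1.07.

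The patterns of the members over the 18 cultures were compared with those of 12309 genes with a mean of at least 1 CPM. These correlations rest on 6 lines with 3 cultures each and are descriptions. Within the family, *E2f3* and *Tfdp1* were closest (r = 0.933), *E2f2* was closest to *Tfdp2* (0.846), *E2f8* to *E2f7* (0.797) and *E2f4* to *Tfdp1* (0.735), and *E2f2* and *E2f6* ran opposite (−0.788). *E2f1* had no close member, with 0.326 for *Tfdp2*. Ranked among the 12309 genes, *Tfdp1* was at place 2 for *E2f3*, but *Tfdp2* was at place 450 for *E2f2*, *E2f7* at 80 for *E2f8* and *Tfdp1* at 253 for *E2f4*. Over all genes, *E2f2* was most like *A730090H04Rik* (0.990) and *Olfr805* (0.986), *Tfdp2* like the mitotic genes *Nusap1* (0.970) and *Spc25* (0.969), *E2f7* like *Tinf2* (0.952) and *Nfatc2ip* (0.941) and *E2f8* like *Kifc3* (0.934) and *Tbx3* (0.923). *E2f5* was most like *Pid1* (0.978) and *Ttll5* (0.969), *E2f4* like *Atp13a1* (0.969) and *Got2* (0.963), and *E2f6* like *Dock4* (0.963) and *Thbs2* (0.959). The nearest genes to *E2f3* were *Ppp4r1* (0.933) and *Tfdp1*, those to *Tfdp1* were *Psmd11* (0.951) and *Ppp4r1* (0.941), and those to *E2f1* were *Tnfsf12* (0.849) and *Drap1* (0.848).

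The genes that E2F acts on were read from a list of 40 S-phase targets. None passed the test between genotypes, and 18 had an unadjusted p under 0.05 (3400 of all 15207 genes had). In *Nf1*/*Cdkn2a* dKO 38 of the 40 had a lower estimate, as had 7875 of all 15207 genes. The median of the 40 was −0.55 on the log2 scale, beside −0.02 over all genes tested. DESeq2 on the 6 lines, with 8.63% of all genes called, called 6 of the 40. With 16.6% of all genes called, limma-voom with a random effect for line called 19 of the 40. The estimates ran from *Ung*, a uracil glycosylase (−1.01 ± 0.33 SE, adjusted p = 0.148), to *Rrm2*, a subunit of ribonucleotide reductase (0.17 ± 0.17 SE, adjusted p = 0.572). For 27 of the 40 the line levels of the genotypes were fully apart, as they were for 31.4% of all genes tested. *Nf1*/*p53* line 3 was the highest line for 30 of them, and without it the median was −0.31, with 36 of the 40 still lower by sign.

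The 10 G2/M markers all had a lower estimate and none passed in edgeR or in DESeq2 on the 6 lines (2 with an unadjusted p under 0.05 in edgeR), with a median of −0.34, from *Bub1* (−0.62 ± 0.21 SE) to *Cdk1* (−0.01 ± 0.26 SE). Of the 10, limma-voom with a random effect for line called 2, beside 16.6% of all genes. The proliferation marker *Mki67* was at 302.4, 352.6 and 783.3 CPM in *Nf1*/*p53* lines 1, 2 and 3 and at 415.0, 284.3 and 372.9 CPM in *Nf1*/*Cdkn2a* lines 1, 2 and 3. Without *Nf1*/*p53* line 3 the median of the G2/M markers was −0.05 and 7 of 10 were lower by sign. The part of proliferation in the levels of *E2f2*, *E2f7*, *E2f8* and *Tfdp2* in that line was not tested.

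**Figure D5:**
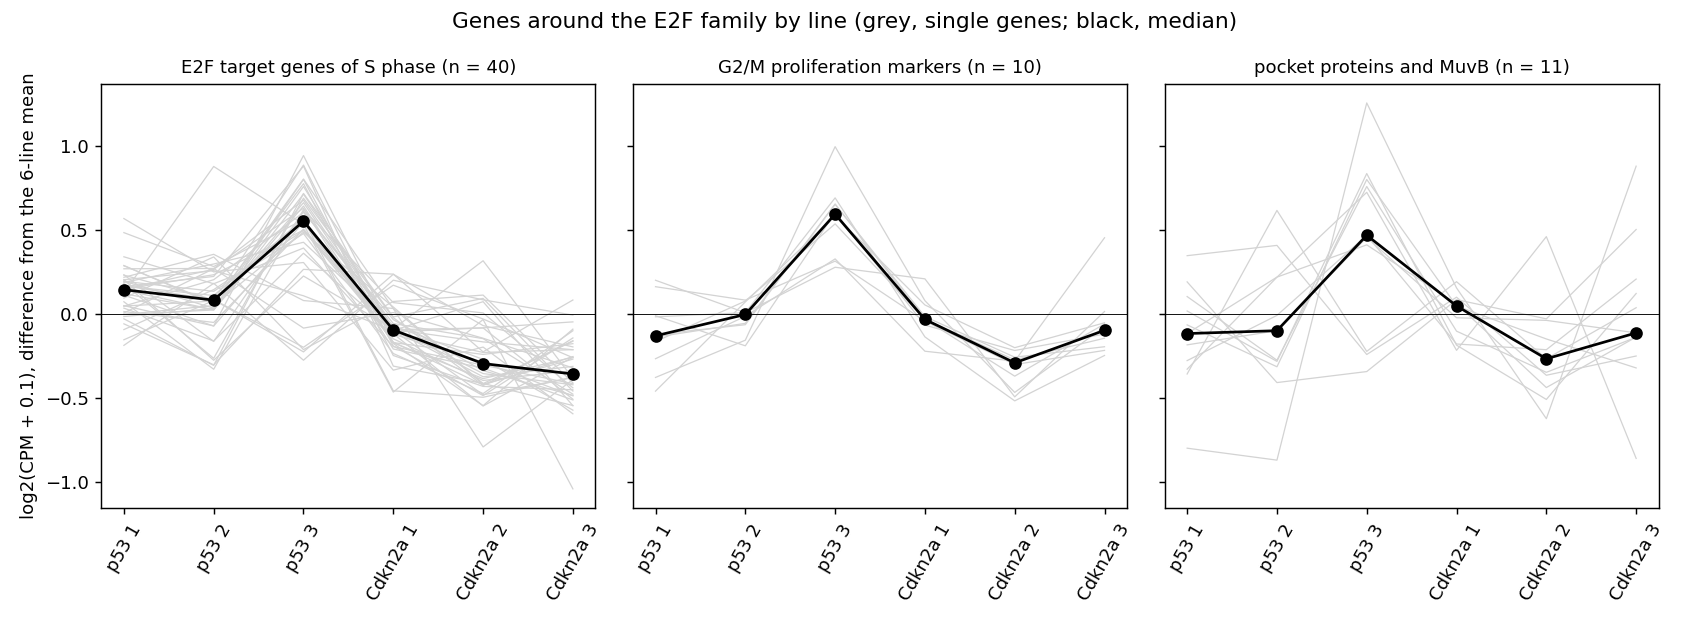
Difference of log2(CPM + 0.1) from the mean of the 6 lines for single genes (grey) and their median (black) in each line, for the E2F targets of S phase, the G2/M markers and the pocket proteins with the MuvB genes. All 3 medians are highest in *Nf1*/*p53* line 3, at 0.55, 0.59 and 0.47.

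Of 11 genes for pocket proteins, MuvB subunits and their partners, none passed in edgeR or in DESeq2 on the 6 lines, none had an unadjusted p under 0.05 in either, and 9 had a lower estimate with a median of −0.35, or −0.04 without *Nf1*/*p53* line 3. *Rb1*, the pocket protein of the activators, was at 9.89, 9.41 and 41.4 CPM in *Nf1*/*p53* lines 1, 2 and 3 and at 19.2, 11.2 and 31.8 CPM in *Nf1*/*Cdkn2a* lines 1, 2 and 3 (log2 fold change 0.04 ± 0.68 SE). *Rbl1*, which encodes p107, had the lowest estimate of the list (−0.45 ± 0.27 SE), *Rbl2*, which encodes p130, was at −0.44 ± 0.33 SE, and *Lin52* had the highest (0.37 ± 0.28 SE). None of 10 G1 cyclins and kinases passed in edgeR, where 2 had an unadjusted p under 0.05. DESeq2 on the 6 lines called 2 and limma-voom with a random effect for line called 2, beside 8.63% and 16.6% of all genes. The estimates of all 10 ran from *Ccnd2*, a D-type cyclin (−1.60 ± 0.99 SE), to *Ccne1* (0.19 ± 0.28 SE), with a median of −0.02, and neither of these ends was among the 2 with an unadjusted p under 0.05 in edgeR.

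None of 7 kinase inhibitor genes passed in edgeR, where 2 had an unadjusted p under 0.05. DESeq2 on the 6 lines called 2 and limma-voom with a random effect for line called 3, beside 8.63% and 16.6% of all genes. The estimates of all 7 ran from *Cdkn1c* (−2.96 ± 0.75 SE, adjusted p = 0.0912) to *Cdkn1a*, which encodes p21 (1.35 ± 0.46 SE, adjusted p = 0.155). *Cdkn1a* was at 33.0, 41.3 and 108.2 CPM in *Nf1*/*p53* lines 1, 2 and 3 and at 180.2, 158.0 and 127.7 CPM in *Nf1*/*Cdkn2a* lines 1, 2 and 3, which did not overlap. Without *Nf1*/*p53* line 3 its log2 fold change in edgeR was 2.07 (adjusted p = 0.0380). Without any one of the other lines it was 1.06 to 1.48 (adjusted p = 0.242 to 0.320). The adjusted p of *Cdkn1a* was 0.0447 in DESeq2 on the 6 lines and 0.00019 in limma-voom with a random effect for line. Of 8 p53 targets, *Ccng1* (2.52 ± 0.26 SE, adjusted p = 0.0210) and *Mdm2*, the ubiquitin ligase of p53 (1.56 ± 0.15 SE, adjusted p = 0.0198), were higher in *Nf1*/*Cdkn2a* dKO, and *Gadd45a* had the lowest estimate (−1.48 ± 0.36 SE, adjusted p = 0.0867). By sign 5 of the 8 were higher and 3 lower, with a median of 0.67. In edgeR 5 had an unadjusted p under 0.05, as had 3400 of all 15207 genes. DESeq2 on the 6 lines called 4 and limma-voom with a random effect for line called 5, beside 8.63% and 16.6% of all genes. With one *Nf1*/*Cdkn2a* line left out, the adjusted p of *Mdm2* was 0.0669 to 0.0969 and that of *Ccng1* 0.0669 to 0.101, and it was 0.0659 for *Ccng1* without *Nf1*/*p53* line 2.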

How the data were processed

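Gene expression was measured by RNA-seq in 18 libraries, with 3 tumor-derived lines of each genotype and 3 cultures of each line. The authors deposited raw counts, as whole read numbers for each gene, in a table of 35275 genes, and the submitters' processing notes name CASAVA, STAR 2.5, DESeq2 1.14.1 and the build GRCm38. The counting tool and its strand setting are not given in the sources used here. All count columns were used.

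Counts of the 3 cultures were added up for each line, kept with filterByExpr (minimum count 10, minimum total 15), scaled with TMM and compared between genotypes with edgeR's quasi-likelihood test and Benjamini-Hochberg adjustment over all genes (R 4.3.3 with edgeR 4.0.16; alternatives with DESeq2 1.42.0 and limma 3.58.1). Lines of one genotype were compared with the same test on 18 cultures. The labels do not say how cultures were separated, so their spread may be technical. The scripts were tested on simulated data. CPM values carry counting error set by 19560535 to 28312207 counts per library. Exon lengths and gene positions came from GENCODE M21 and promoter windows from RefSeq. Levels by line were shown as log2(CPM + 0.1).

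The members and gene lists were chosen with earlier results of these data known. Named were all members, the called genes and the highest and lowest estimates of each list, *Rb1*, *Rbl1*, *Rbl2*, *Cdkn1a*, *Cdkn2a*, *Trp53* and *Mki67*, and the 2 genes most correlated with each member; from the marker lists only genes that describe the lines were named (1 marker is not reported here), and *Nf1*, *Id3*, *Asap3*, *Tuba3a* and *Tuba3b* were chosen after their values were seen. Alternatives were other tools, scaling, filters, blocks and leaving out a line or culture.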

Additional observations from a re-analysis of the deposited data

How the results depend on the processing

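The number of genes called between the genotypes (274) was 6096 in edgeR and 7186 in DESeq2 on 18 cultures, 2173 in limma-voom with a random effect for line, 2060 in DESeq2 on 6 lines and 0 to 172 with one line left out (0, with 2668 at an unadjusted p under 0.05 in edgeR, without *Nf1*/*Cdkn2a* line 1). The number of members called (0) was 3, 3 and 1 in edgeR on cultures, DESeq2 on cultures and DESeq2 on lines. The median of the S-phase targets was −0.61 to −0.31 with one line left out, lowest without *Nf1*/*p53* line 2 and closest to 0 without *Nf1*/*p53* line 3. Members whose sign turned, none of them called, were *E2f3* (−0.0069 without *Nf1*/*Cdkn2a* line 2, up to 0.24), *E2f4* (−0.08 without *Nf1*/*p53* line 2 and −0.16 without *Nf1*/*Cdkn2a* line 2, up to 0.37), *E2f5* (0.12 without *Nf1*/*p53* line 1, down to −0.65), *E2f7* (0.20 without *Nf1*/*p53* line 3, down to −0.31) and *E2f8* (−0.20, −0.14 and −0.25 without *Nf1*/*p53* line 1, *Nf1*/*p53* line 2 and *Nf1*/*Cdkn2a* line 1, up to 0.57). The cause was not tested. With the line number as a replicate block edgeR called 0 genes (2740 at an unadjusted p under 0.05), and with the culture number as a replicate block 5681 genes and 2 members, *E2f2* and *Tfdp2*. Same-numbered lines correlated at −0.105, −0.129 and −0.083 and cultures at −0.057 to 0.085, so the numbers were not taken as pairs. DESeq2 size factors and no filter on low counts left the counts of genes and members called within 1.5 times, and so did every alternative for the comparisons among lines of one genotype, although *E2f2*, *E2f5* and *E2f7* changed sides of the threshold among *Nf1*/*Cdkn2a* lines under some of them. With 3 lines per genotype, members that missed the threshold may still differ, and the lowest count of a member in a culture was 53 reads (*E2f2*).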
